A study of Homo sapiens with 24 samples.

Results

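The 9 genes described here are textbook targets of NRF2, the transcription factor that drives the antioxidant response: TXNRD1, OSGIN1, SRXN1, NQO1, GCLM, GCLC, HMOX1, SLC7A11 and ABCC2. They are 9 of 23284 rows of a gene expression table, and were taken by name. TXNRD1, OSGIN1 and ABCC2 were in addition picked because they were lower on TGF-beta in SFPQ-depleted cells of this same data set, so their values in that comparison are given as a description without a test. RNA was measured in 6 lines of cultured human liver cancer cells, HepG2, Hep3b, HLE, Huh1, Huh7 and SK-HEP1. Every one of them gave 4 libraries: control siRNA (siCTL), control siRNA with TGF-beta, siRNA against SFPQ (siSFPQ), and siSFPQ with TGF-beta. SFPQ is a nuclear RNA-binding protein, and TGF-beta, the growth factor that activates SMAD transcription factors, was given at 2 ng per ml for 24 hours. All 24 libraries come from siRNA-transfected cells. The labels name no second SFPQ siRNA and no rescue, and each line has 1 library per group, so the 6 lines are the replicates. The p-values set the mean change within lines against how much that change differs from line to line.

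NRF2, encoded by NFE2L2, is held low in unstressed cells by KEAP1, which hands it to a CUL3 and RBX1 ubiquitin ligase. Electrophiles and oxidants disable KEAP1, and NRF2 then pairs with small MAF proteins such as MAFG and binds antioxidant response elements. BACH1 is a repressor that occupies the same elements, and SQSTM1 (p62) can pull KEAP1 into autophagy. The targets fall into 4 roles: the thioredoxin branch (TXNRD1, which reduces thioredoxin, and SRXN1, which repairs over-oxidised peroxiredoxins), glutathione supply (GCLC and GCLM, the catalytic and modifier subunits of glutamate-cysteine ligase, and SLC7A11, the cystine importer), quinone and haem handling (NQO1, a quinone reductase, and HMOX1, haem oxygenase 1), and ABCC2, the canalicular pump for glutathione and glucuronide conjugates. OSGIN1 is an oxidative-stress-induced growth inhibitor. In liver cancer the pathway is known for being constitutively active in a subset of tumours.

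The promoter stretches below are shown because the 3 genes of the list with a matching element there are TXNRD1 and OSGIN1, which were picked for their TGF-beta response, and GCLM, which was called after knockdown both without and with TGF-beta. In RefSeq, build GRCh38.p14, 7 of the 9 genes had an entry of 250 bases before to 50 bases after a gene start, with 8 entries in all. No entry was matched for HMOX1 and SLC7A11. Each entry was searched on both strands for the core of the antioxidant response element, TGACNNNGC (N is any base), and for the AP-1 site TGANTCA. An AP-1 site can lie inside an antioxidant response element. Each printed stretch is 100 bases long, lies wholly upstream of the start, reads 5′ to 3′ on the strand of the gene, and has the matched motif, on either strand, in capitals.

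TXNRD1, first start, chr12:104215634-104215733, plus strand: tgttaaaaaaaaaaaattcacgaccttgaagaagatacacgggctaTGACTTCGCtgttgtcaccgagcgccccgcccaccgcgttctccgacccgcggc
TXNRD1, second start, chr12:104286884-104286983, plus strand: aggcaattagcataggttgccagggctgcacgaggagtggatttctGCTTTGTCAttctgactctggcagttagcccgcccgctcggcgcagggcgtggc
GCLM, chr1:93909431-93909530, minus strand: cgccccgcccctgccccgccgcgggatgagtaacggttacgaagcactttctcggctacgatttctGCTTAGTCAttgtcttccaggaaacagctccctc
OSGIN1, chr16:83953096-83953195, plus strand: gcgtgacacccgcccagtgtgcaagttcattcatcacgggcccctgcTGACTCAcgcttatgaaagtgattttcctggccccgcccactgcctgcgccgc

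The antioxidant response element core was found in 3 of the 8 entries, both TXNRD1 starts and GCLM, and in 13.3% of all 34796 RefSeq promoter entries. The AP-1 site was found in 1 of the 8, OSGIN1, and in 7.73% of all entries. The first TXNRD1 start had a second core closer to the start, outside the stretch shown. Neither motif was in the entries of SRXN1, NQO1, GCLC and ABCC2. A match describes letters in this window only.

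The deposited values are FPKM, fragments scaled to transcript length and to the mapped fragments of the library, so levels of different genes can be set side by side. Relative depth, estimated from what 1 read is worth in low genes, ran from 0.366 to 1.80 times the median library, with the lowest values in 2 siSFPQ libraries, that of TGF-beta-treated Huh7 (0.366) and that of untreated HepG2 (0.392). SFPQ was at 90.4 to 247 FPKM in the siCTL libraries and 23.5 to 51.4 FPKM in the siSFPQ libraries without TGF-beta, with no overlap. Of 9 hepatocyte markers, all 9 reached 1 FPKM in Huh1, Huh7 and HepG2, 5 did in HLE and in SK-HEP1, and 3 in Hep3b. In the Hep3b libraries ALB, the albumin gene, was at 0.514 to 0.951 FPKM, and TTR, APOB, FGB and HNF4A were also under 1 FPKM. These levels go against a hepatocyte-like line, and whether the label Hep3b is right was not tested; the name is used as labelled. Without Hep3b the knockdown change of GCLM was -0.92 (limma adjusted p = 0.0245) without and -0.94 (adjusted p = 0.00656) with TGF-beta, and that of SRXN1 with TGF-beta was -0.45 (adjusted p = 0.0152). Without it the TGF-beta change in siCTL cells was -0.82 for ABCC2 (adjusted p = 0.0520), -0.58 for TXNRD1 and -0.64 for OSGIN1, and in siSFPQ cells -1.36, -0.91 and -1.02. None of 5 endothelial markers reached 1 FPKM in any line. Of 5 immune markers, 2 reached 1 FPKM in every line, CD68 among them, and the 5 summed to as much as 773 FPKM in HepG2. The defining immune genes PTPRC and CD3E stayed under 1 FPKM throughout.

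Most of the variation of these genes lay between lines, not between treatments. Between 82.8% (GCLM) and 98.9% (NQO1) of the variation in log2 FPKM + 1 over the 24 libraries was of this kind. Ranked by the mean of log2 FPKM + 1 over its 4 libraries, Huh1 was highest for 9 of the 9 genes. For GCLC it was so only narrowly, with a mean on that scale of 50.9 FPKM beside 50.6 FPKM in HepG2. HepG2 was second for 7 of them and HLE for the other 2, TXNRD1 and HMOX1. Huh7 was lowest for 6, SK-HEP1 for 2 (OSGIN1 and SLC7A11) and HLE for 1 (NQO1). In cells given control siRNA alone, the medians over lines ran from 193 FPKM for TXNRD1 through 71.8 for NQO1, 58.6 for HMOX1, 50.8 for SRXN1, 44.7 for ABCC2, 19.2 for GCLM, 14.7 for GCLC and 11.1 for OSGIN1 to 10.3 FPKM for SLC7A11.

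**Figure D1:**
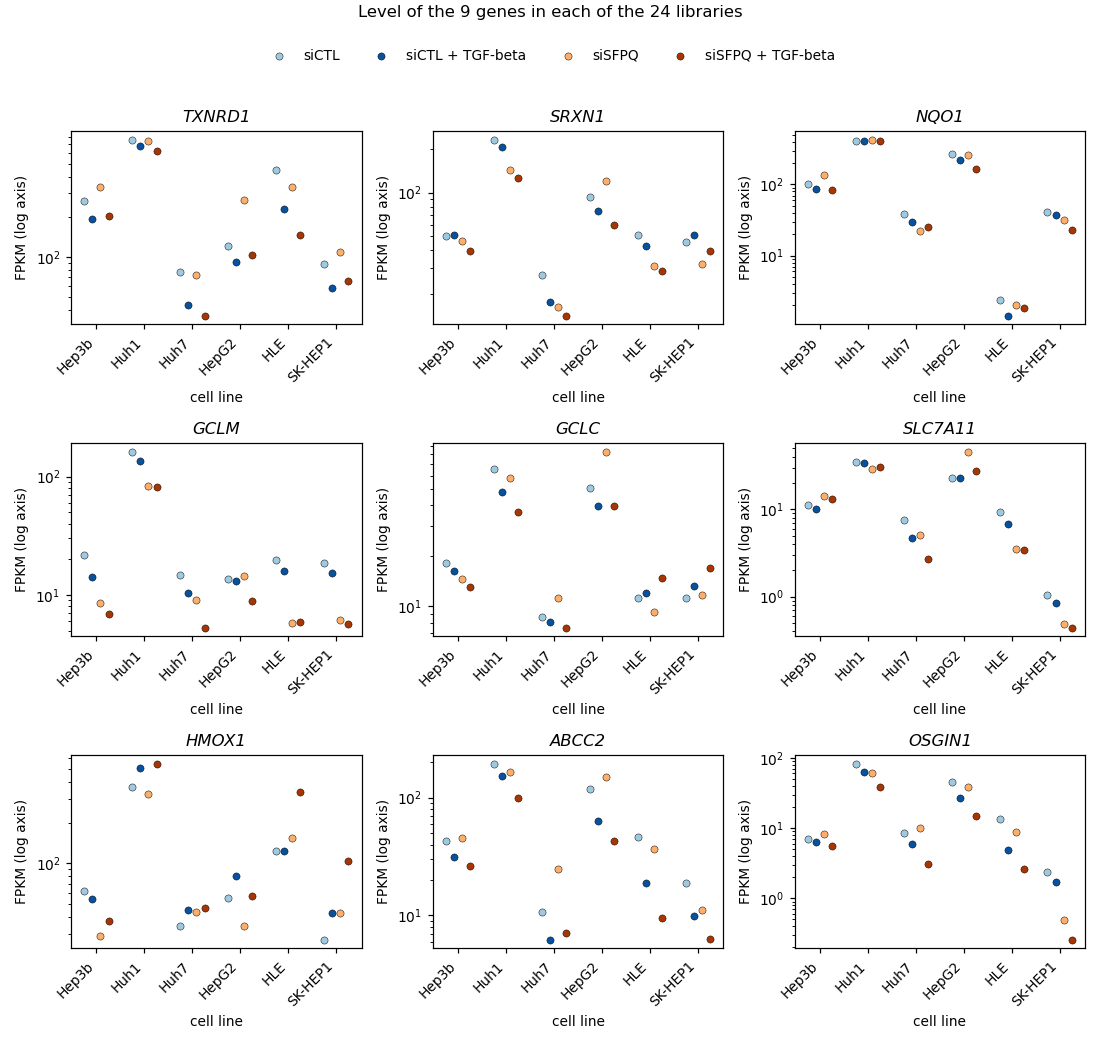
FPKM (log axis) of each of the 9 genes in all 24 libraries, by cell line and group; each point is 1 library. Huh1 has the highest mean log2 level in every panel, and NQO1 in HLE, at 1.44 to 2.38 FPKM, lies far under its level in the other lines.

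The Huh1 excess differed in size between genes. With control siRNA alone, NQO1 stood at 411 FPKM in Huh1 against a median of 41.0 FPKM in the other 5 lines, a ratio of 10.0. The ratio was 9.43 for OSGIN1, 8.70 for GCLM, 6.63 for HMOX1, 6.23 for TXNRD1, 5.86 for GCLC, 4.60 for SRXN1, 4.52 for ABCC2 and 3.78 for SLC7A11. GCLM was the gene that set Huh1 most apart from each of the others: it was at 161 FPKM in Huh1 and at 13.7 to 21.7 FPKM in the other 5 lines. The mRNA of the factor itself did not follow this order, since NFE2L2 was at 84.6 FPKM in Huh1 and 32.4 to 162 FPKM elsewhere, a ratio of 1.15. Of the other regulators, SQSTM1 was at 2236 FPKM in Huh1 against 217 to 755 FPKM in the other lines, a ratio of 6.69, while the ratio was 1.64 for KEAP1, 1.44 for BACH1 and 1.94 for MAFG. With 1 line of this kind there is no test of Huh1 against the rest.

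Neighbours in the order of lines often could not be separated. Over its 4 libraries, Huh1 lay clear of the second line for TXNRD1 (620 to 755 FPKM against 146 to 447 in HLE), SRXN1, NQO1 and GCLM. For GCLC the ranges overlapped, at 36.6 to 66.0 FPKM in Huh1 and 39.4 to 82.7 FPKM in HepG2. They also overlapped for HMOX1, with 324 to 541 FPKM in Huh1 and 122 to 337 FPKM in HLE, and for OSGIN1, SLC7A11 and ABCC2 between Huh1 and HepG2 (ABCC2 at 98.6 to 193 and 42.7 to 150 FPKM). NQO1 separated the lines best: Huh1 (404 to 421 FPKM), HepG2 (163 to 272), Hep3b (83.6 to 135) and the pair of SK-HEP1 and Huh7 (22.5 to 41.0) did not overlap, and HLE held 1.44 to 2.38 FPKM. The HLE cells were thus almost without NQO1 mRNA while holding the second highest levels of TXNRD1 and HMOX1.

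TGF-beta after SFPQ knockdown is the comparison from which TXNRD1, OSGIN1 and ABCC2 were picked, and it is described here without a test. ABCC2, the conjugate pump, had the largest mean change of the 9. Its level went from 45.7 to 26.2 FPKM in Hep3b, 165 to 98.6 in Huh1, 24.6 to 7.05 in Huh7, 150 to 42.7 in HepG2, 36.5 to 9.5 in HLE and 11.2 to 6.31 in SK-HEP1. TGF-beta-treated cells thus kept 26% to 59.8% of the ABCC2 level in the 6 lines, with the least left in HLE, and the mean log2 change of FPKM + 1 was -1.26 (standard error, SE, 0.181, n = 6 lines).

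TXNRD1, the cytosolic thioredoxin reductase, was lower in each of the 6 lines. It went from 333 to 203 FPKM in Hep3b, 743 to 620 in Huh1, 73.5 to 36.2 in Huh7, 266 to 103 in HepG2, 336 to 146 in HLE and 109 to 65.5 in SK-HEP1. Huh1 kept 83.5% of its level and HepG2 38.9%, and the mean log2 change was -0.87 (SE 0.131). OSGIN1 was lower in 6 of 6 lines too. It went from 8.19 to 5.56 FPKM in Hep3b, 61.3 to 38.9 in Huh1, 10.1 to 3.08 in Huh7, 38.2 to 14.7 in HepG2, 8.66 to 2.62 in HLE and 0.497 to 0.258 in SK-HEP1. The mean log2 change of OSGIN1 was -0.93 (SE 0.174), a value that understates the change in SK-HEP1, where the gene was under 1 FPKM.

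HMOX1, which degrades haem to biliverdin, iron and carbon monoxide, went the other way in all 6 lines. It went from 29 to 37.4 FPKM in Hep3b, 324 to 541 in Huh1, 43.6 to 46.8 in Huh7, 34.6 to 57.6 in HepG2, 153 to 337 in HLE and 42.9 to 104 in SK-HEP1. The largest gains were in SK-HEP1 (241% of the level without TGF-beta) and HLE, the smallest in Huh7 (107%), and the mean log2 change was 0.72 (SE 0.145). The remaining 5 genes had smaller mean changes, -0.24 for SRXN1, -0.29 for NQO1, -0.28 for GCLM, -0.21 for GCLC and -0.25 for SLC7A11. Each of these 5 was higher in at least 1 line. GCLC was the most divided: TGF-beta-treated HepG2 cells held 47.9% of the level without TGF-beta and HLE cells 159%.

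Over all 11882 genes tested in these libraries, 5.34% had an adjusted p under 0.05, which is the call used throughout. Since the choice of genes used the same libraries, no count of the 9 is set against that share.

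**Figure D2:**
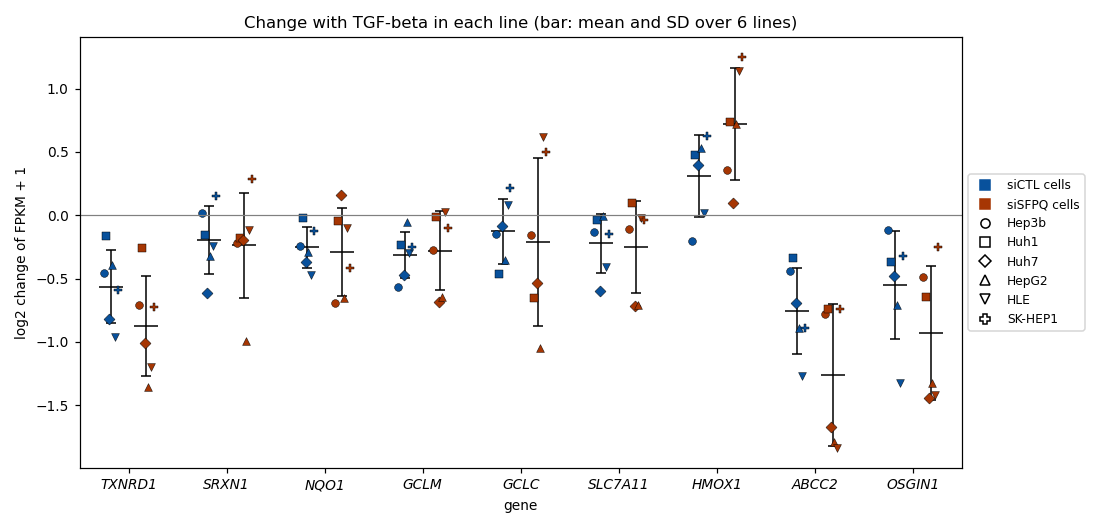
Log2 change of FPKM + 1 with TGF-beta (y axis) for the 9 genes, in siCTL and in siSFPQ cells; each point is 1 line, and the bar is the mean with its SD over 6 lines. TXNRD1, OSGIN1 and ABCC2 lie below 0 in all 6 lines under both siRNAs, and HMOX1 lies above 0 in 5 of 6 lines with siCTL and 6 of 6 with siSFPQ.

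The libraries with control siRNA were not used to pick the genes, and there all 9 were tested. In these cells ABCC2, TXNRD1 and OSGIN1 again had the 3 largest mean changes, at smaller sizes than in siSFPQ cells, and no gene of the list passed the threshold. ABCC2 was lower in 6 of 6 lines, from 42.6 to 31.1 FPKM in Hep3b, 193 to 152 in Huh1, 10.7 to 6.24 in Huh7, 118 to 62.9 in HepG2, 46.7 to 18.8 in HLE and 19.0 to 9.82 in SK-HEP1. The log2 change of ABCC2 was -0.75 (SE 0.111, adjusted p = 0.0633 by limma with Benjamini-Hochberg adjustment over all genes). TXNRD1 was lower in 6 of 6 lines, from 264 to 192 FPKM in Hep3b, 755 to 675 in Huh1, 76.9 to 43.3 in Huh7, 121 to 92.1 in HepG2, 447 to 229 in HLE and 88.2 to 58.2 in SK-HEP1. Its log2 change was -0.56 (SE 0.0960, limma adjusted p = 0.0704).

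OSGIN1 went from 6.89 to 6.29 FPKM in Hep3b, 81.5 to 63.0 in Huh1, 8.63 to 5.90 in Huh7, 44.7 to 27.0 in HepG2, 13.6 to 4.85 in HLE and 2.35 to 1.69 in SK-HEP1. All 6 lines were lower, HLE most, and the log2 change was -0.55 (SE 0.137, limma adjusted p = 0.131). HLE also had the lowest share left for TXNRD1 (51.4%), ABCC2 (40.4%) and OSGIN1 (35.6%), as well as for NQO1 (60.4%). Huh1, where the 9 genes were most abundant, kept the most TXNRD1 (89.4%), ABCC2 (79.1%) and NQO1 (98.3%).

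Among the others, 3 genes were lower in each of the 6 lines with control siRNA: NQO1 with a log2 change of -0.25 (limma adjusted p = 0.125), GCLM with -0.31 (adjusted p = 0.105) and SLC7A11 with -0.22 (adjusted p = 0.259). SRXN1 and GCLC were lower in 4 lines and higher in 2, with log2 changes of -0.19 (adjusted p = 0.339) and -0.12 (adjusted p = 0.498). HMOX1 was higher in 5 lines, at 42.5 against 27.2 FPKM in SK-HEP1 and 508.5 against 364 FPKM in Huh1, and lower in Hep3b, at 54.1 against 62.3 FPKM. The log2 change of HMOX1 was 0.31 (SE 0.107, limma adjusted p = 0.233).

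In siCTL cells 0 of the 9 genes were thus called by limma, where 0.0987% of all 12163 genes were, 12 genes (0.0658% higher and 0.0329% lower). At an unadjusted p under 0.05, 7 of the 9 passed, 6 lower and 1 higher, and so did 1908 of the 12163 genes. The median log2 change of the 9 genes was -0.253, beside -0.025 over all genes tested. Both values include TXNRD1, OSGIN1 and ABCC2, which were picked for a fall on TGF-beta in the same 6 lines. They are therefore not independent of that choice. Of the 6 other genes, 4 passed unadjusted, 3 lower and 1 higher, and their median log2 change was -0.208.

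The change with TGF-beta in siSFPQ cells minus that in siCTL cells contains the comparison the genes were picked from, so it is again a description. It was -0.51 ± 0.412 for ABCC2 (SD, n = 6 lines), lower in 5 of 6 lines. It was -0.38 ± 0.370 for OSGIN1, lower in 5 of 6 lines, and -0.31 ± 0.325 for TXNRD1, lower in 6 of 6. In SK-HEP1 the difference on log2 FPKM + 1 was slightly positive for ABCC2 (0.149) and OSGIN1 (0.066). OSGIN1 was low there, going from 2.35 to 1.69 FPKM with siCTL and from 0.497 to 0.258 FPKM with siSFPQ. It thus lost a larger share with siSFPQ, and its positive sign comes from the added 1 FPKM. With a pseudocount of 0.1 the mean difference of OSGIN1 over the 6 lines was -0.5. For TXNRD1 a single line supplied much of the mean: the difference was -0.963 in HepG2, and the mean without HepG2 was -0.182. Leaving out Huh7 and HepG2 together, the lines with the shallowest siSFPQ libraries, gave -0.291 for ABCC2, -0.169 for OSGIN1 and -0.18 for TXNRD1. For HMOX1 the difference was 0.41 ± 0.478, higher in 5 of 6 lines, with 1.12 in HLE and -0.299 in Huh7. The mean for HMOX1 was 0.268 without HLE and 0.641 without Huh7 and HepG2. The other 5 genes had mean differences between -0.087 (GCLC) and 0.032 (GCLM).

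After SFPQ knockdown the member with the smallest adjusted p was GCLM, the modifier subunit that raises the efficiency of glutamate-cysteine ligase. Without TGF-beta, GCLM went from 21.7 to 8.56 FPKM in Hep3b, 161 to 82.7 in Huh1, 14.9 to 9.11 in Huh7, 19.8 to 5.81 in HLE and 18.5 to 6.20 in SK-HEP1, but from 13.7 to 14.3 in HepG2. It fell with a log2 change of -0.97 (SE 0.192, limma adjusted p = 0.0104), in 5 of 6 lines. With TGF-beta present in both arms, GCLM fell in 6 of 6 lines, HepG2 included. It went from 14.3 to 6.92 FPKM in Hep3b, 137 to 81.7 in Huh1, 10.5 to 5.30 in Huh7, 13.2 to 8.83 in HepG2, 16 to 5.92 in HLE and 15.4 to 5.71 in SK-HEP1. That log2 change was -0.94 (SE 0.116, limma adjusted p = 0.00240). In the median line GCLM kept 45.4% of its level without TGF-beta and 49.5% with it.

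GCLC, the catalytic partner of GCLM, did not share this: its log2 change was 0.06 (limma adjusted p = 0.768) without TGF-beta and -0.02 (adjusted p = 0.880) with it, and 3 lines were higher and 3 lower in each. SLC7A11, which supplies cystine to the same synthesis, changed by -0.19 (adjusted p = 0.571) and -0.22 (adjusted p = 0.305). In SLC7A11 the lines disagreed, with siSFPQ cells at 37.9% of the siCTL level in HLE and 199.6% in HepG2 without TGF-beta. The difference between GCLM and GCLC was not itself tested.

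SRXN1, the sulfiredoxin that restores peroxiredoxins, was the second of the 6 tested genes called lower after knockdown. OSGIN1 (-0.70) and ABCC2 (-0.46) had larger mean falls with TGF-beta, but were not tested there. With TGF-beta it went from 50.8 to 39.3 FPKM in Hep3b, 207 to 126 in Huh1, 17.4 to 14.1 in Huh7, 74.7 to 59.9 in HepG2, 43.1 to 28.8 in HLE and 50.7 to 39.4 in SK-HEP1. It fell in 6 of 6 lines, by 0.43 on the log2 scale (SE 0.0808, limma adjusted p = 0.00654). Without TGF-beta it went from 50.3 to 46.0 FPKM in Hep3b, 231 to 143 in Huh1, 27.1 to 16.3 in Huh7, 51.3 to 31.3 in HLE and 45.5 to 32.2 in SK-HEP1, and from 93.6 to 120 in HepG2. There the log2 change of -0.39 did not pass (limma adjusted p = 0.0756). Without HepG2 it was -0.54 (adjusted p = 0.0168), and without Huh7 and HepG2 -0.50 (adjusted p = 0.0477).

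**Figure D3:**
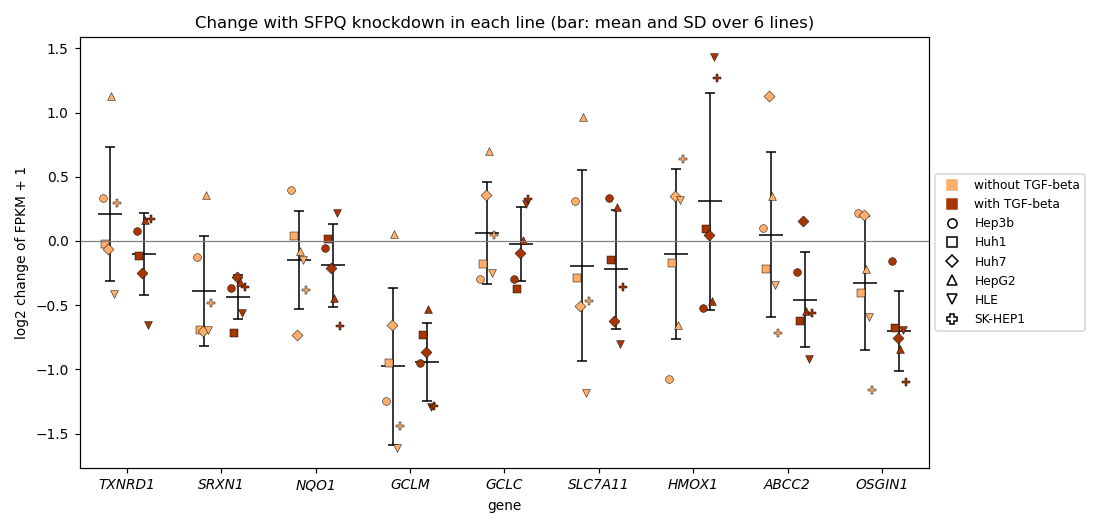
Log2 change of FPKM + 1 with SFPQ knockdown (y axis) for the 9 genes, without and with TGF-beta; each point is 1 line, and the bar is the mean with its SD over 6 lines. GCLM lies lowest, at -0.94 with TGF-beta, and without TGF-beta the HepG2 point is the highest for TXNRD1, SRXN1, GCLM, GCLC and SLC7A11.

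The HepG2 siSFPQ library without TGF-beta was among the shallowest, and HepG2 had the highest knockdown change of the 6 lines there in 5 of the 9 genes. The library had 266 FPKM of TXNRD1 against 121 FPKM with siCTL, 45.3 against 22.7 FPKM of SLC7A11, and 82.7 against 50.6 FPKM of GCLC. With TGF-beta the HepG2 values were 103 against 92.1 FPKM of TXNRD1, 27.3 against 22.6 FPKM of SLC7A11 and 39.6 against 39.4 FPKM of GCLC. The part of depth in these values was not tested.

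NQO1 and HMOX1 did not pass in either knockdown comparison. NQO1 had log2 changes of -0.15 (limma adjusted p = 0.427) without and -0.19 (adjusted p = 0.232) with TGF-beta. HMOX1 had -0.10 (adjusted p = 0.752) and 0.31 (adjusted p = 0.384), and its lines went apart: with TGF-beta, siSFPQ cells were at 337 against 124 FPKM in HLE and 104 against 42.5 FPKM in SK-HEP1, but at 37.4 against 54.1 FPKM in Hep3b and 57.6 against 79.9 FPKM in HepG2. Of the 6 genes tested, 1 was called without TGF-beta, where 21.7% of all 12009 genes were (15.0% lower and 6.69% higher). With TGF-beta 2 of the 6 were called, where 30.3% of 12020 genes were (21.8% lower and 8.47% higher). A share of 1 or 2 in 6 is near that background, so nothing particular to the list is read from it.

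For TXNRD1, OSGIN1 and ABCC2 the knockdown comparisons share libraries with the one they were picked from, and they are described only. Without TGF-beta, TXNRD1 (mean log2 change 0.21) and ABCC2 (0.05) were each higher in 3 lines and lower in 3. ABCC2 with siSFPQ was at 230% of the siCTL level in Huh7 and 58.9% in SK-HEP1. OSGIN1 (-0.33) was lower in 4 lines and was at 21.1% of its siCTL level in SK-HEP1. With TGF-beta, OSGIN1 was lower in 6 of 6 lines (-0.70) and ABCC2 in 5 of 6 (-0.46), while TXNRD1 was higher in 3 and lower in 3 (-0.10). The cells with both treatments therefore held the least OSGIN1 of the 4 groups in each line, and the least ABCC2 in 5 of 6, with Huh7 as the exception at 7.05 against 6.24 FPKM with siCTL and TGF-beta.

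Of the regulators, BACH1, the repressor that competes for antioxidant response elements, rose with knockdown. Without TGF-beta it went from 8.34 to 11.5 FPKM in Hep3b, 18.2 to 18.8 in Huh1, 8.15 to 10.5 in Huh7, 12.7 to 17.1 in HepG2, 14.4 to 29.6 in HLE and 12.9 to 24.9 in SK-HEP1. All 6 lines were higher, HLE and SK-HEP1 most, with a log2 change of 0.51 (SE 0.129, limma adjusted p = 0.0222). With TGF-beta it was 0.68 (SE 0.197, adjusted p = 0.03), again in 6 of 6 lines. The BACH1 call was lost without HLE (adjusted p = 0.0599) or SK-HEP1 (0.0616) in the first comparison, and without Hep3b (0.0562) or SK-HEP1 (0.0849) in the second. It was also lost with no filter on low values (0.0601 and 0.0736) and, in the first, without Huh7 and HepG2 together (0.0645). BTRC, a substrate receptor of another ligase that degrades NRF2, fell in both, by 0.86 (limma adjusted p = 0.0306) and 0.89 (adjusted p = 0.0210) on the log2 scale. It was not called without SK-HEP1 in either comparison (adjusted p = 0.0876 and 0.0610), nor with no filter (0.0850 and 0.0550), nor, without TGF-beta, when Hep3b (0.0519), HLE (0.0707) or Huh7 and HepG2 together (0.0515) were left out.

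NFE2L2 itself was not called in any of the 4 comparisons. Its log2 change with TGF-beta was -0.24 (limma adjusted p = 0.280) in siCTL and -0.37 (adjusted p = 0.141) in siSFPQ cells. In the latter, Huh7 went from 160 to 84.2 FPKM and HepG2 from 211 to 109, the lines with the shallowest siSFPQ libraries. The other lines moved less: 81.9 to 76.6 FPKM in Hep3b, 82.45 to 80.75 in Huh1, 45.3 to 46.0 in HLE and 27.9 to 22.7 in SK-HEP1. The part of depth was not tested. With knockdown the log2 change of NFE2L2 was 0.12 (adjusted p = 0.429) and -0.01 (adjusted p = 0.923). KEAP1 stayed between 20.4 and 63.5 FPKM over all libraries and was not called, and neither was MAFG. SQSTM1 was higher after knockdown without TGF-beta by 0.37 (adjusted p = 0.0570), and passed without Huh1 (0.46, adjusted p = 0.0332). Of the 14 regulators, 0 were called on TGF-beta in siCTL cells and 2 passed unadjusted, beside 12 and 1908 of all 12163 genes. In siSFPQ cells 1 was called, PGAM5, where 5.34% of all 11882 genes were. That call was lost without any of Huh1, Huh7, HepG2, HLE or SK-HEP1 (limma adjusted p from 0.0628 to 0.111). Over all genes, knockdown called 21.7% without TGF-beta and 30.3% with it. With knockdown, RBX1 was also called lower in the presence of TGF-beta (-0.31, limma adjusted p = 0.0242), but not without Hep3b (0.0673), HepG2 (0.0522) or HLE (0.0602), nor after median ratio scaling, where it was -0.19 (adjusted p = 0.127).

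**Figure D4:**
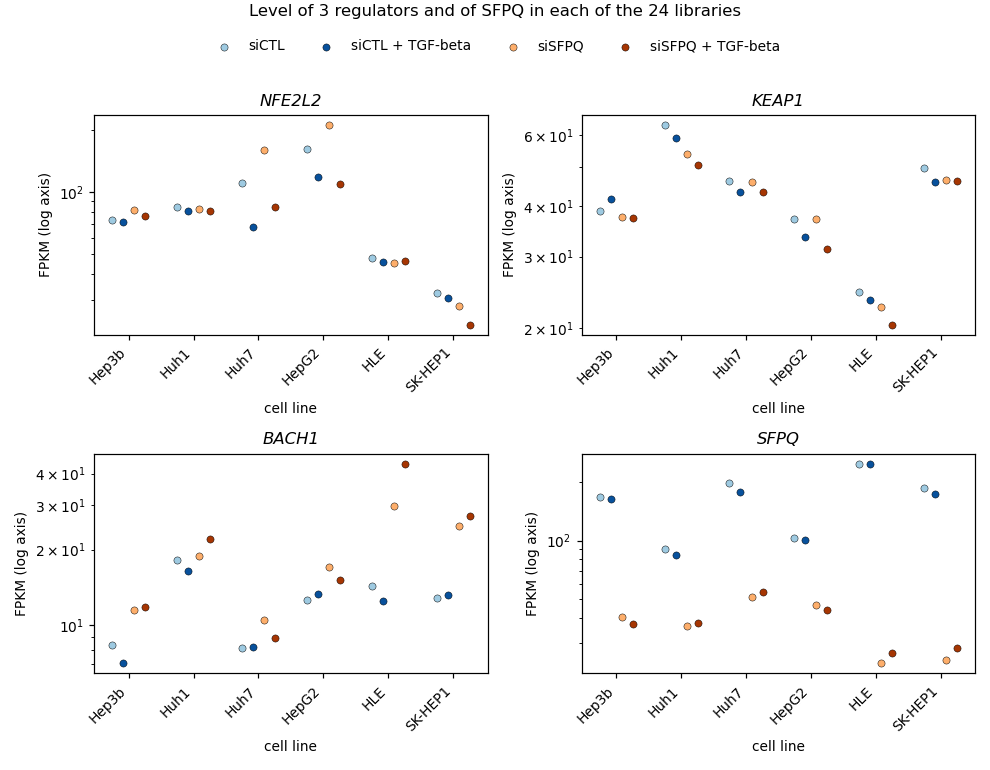
FPKM (log axes) of NFE2L2, KEAP1, BACH1 and SFPQ in all 24 libraries, by cell line and group; each point is 1 library. SFPQ is lower in both siSFPQ libraries of every line, and BACH1 is higher in the siSFPQ than in the siCTL library of each line.

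A wider set of 49 further NRF2 target genes, 48 of which could be tested, served as the surroundings of the 9. On TGF-beta in siCTL cells 0 were called by limma. Unadjusted, 13 passed, all lower, beside 1908 of all 12163 genes in either direction. The median log2 change was -0.107 beside -0.025 over all genes. In siSFPQ cells 9 of 48 were called, all lower, where 357 of all 11882 genes tested were lower and 277 higher (2.33%): TXN, the thioredoxin that TXNRD1 reduces, PRDX6, MGST1, PGD, IDH1, CBR1, PIR, NQO2 and BLVRB. TXN had a log2 change of -0.46 (SE 0.102, limma adjusted p = 0.0441) and PGD, of the pentose phosphate pathway, -0.34 (SE 0.0556, adjusted p = 0.0286). Each of the 9 was lower in 6 of 6 lines. The calls needed nearly all lines: 3 or fewer genes were called when any single line was left out, and 0 without Huh1, without HepG2 or without HLE, while the mean change of TXN stayed between -0.55 and -0.39 and that of PGD between -0.36 and -0.31. After median ratio scaling 3 were called, and without the filter 0. The median of the 48 was -0.204 beside -0.056.

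With knockdown the share of the wider set called was near that of all genes. Without TGF-beta 3 of 48 were higher and 6 lower, beside 6.69% and 15.0% of all genes, with a median of -0.041 beside -0.065 over all genes. With TGF-beta 4 of 48 were higher and 10 lower, beside 8.47% and 21.8%, with a median of -0.113 beside -0.093. The latter counts were 6 and 6 after median ratio scaling, 1 and 9 without the filter, and 1 and 12 without SK-HEP1. PIR, an iron-binding nuclear protein, fell by 0.91 (SE 0.164, limma adjusted p = 0.00754) and by 1.13 (SE 0.15, adjusted p = 0.00272) on the log2 scale. NQO2, the paralogue of NQO1, fell by 0.52 (adjusted p = 0.00851) and 0.81 (adjusted p = 0.00293), whereas NQO1 did not pass. MGST1, a membrane-bound glutathione transferase, fell by 0.65 (adjusted p = 0.00586) and 1.07 (adjusted p = 0.00299). EPHX1, microsomal epoxide hydrolase, and the glutathione transferase gene GSTM3 were lower in both too, with GSTM3, whose reads may be shared with close paralogues, at -0.50 (adjusted p = 0.0100) and -0.59 (adjusted p = 0.00518). TXNIP, an inhibitor of thioredoxin, rose by 0.78 (adjusted p = 0.00824) and 0.66 (adjusted p = 0.00962) and GLRX, a glutaredoxin, by 0.77 (adjusted p = 0.0132) and 0.57 (adjusted p = 0.0204). The GLRX call with TGF-beta was lost without SK-HEP1 (adjusted p = 0.0514).

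By role, in the presence of TGF-beta, knockdown called 1 higher and 3 lower of 12 glutathione and thioredoxin genes, 1 and 3 of 6 genes of NADPH supply, 0 and 3 of 15 tested detoxification and efflux genes, 1 and 1 of 7 iron and haem genes, and 1 and 0 of 8 other NRF2-bound genes. The shares over all genes were 8.47% higher and 21.8% lower. Without TGF-beta these counts were 1 and 3, 0 and 0, 0 and 3, 1 and 0, and 1 and 0, beside 6.69% and 15.0% of all genes. Nothing particular to a role is read from such small counts. The ferritin genes are among the iron genes: FTL rose without TGF-beta (0.40, limma adjusted p = 0.0276) and FTH1 with it (0.26, adjusted p = 0.0235). Each of these ferritin calls was lost without any of 4 single lines, for FTL Hep3b, Huh7, HLE or SK-HEP1 and for FTH1 Huh1, Huh7, HLE or SK-HEP1 (adjusted p from 0.0530 to 0.0871), and reads of both genes may be shared with pseudogenes.

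Antioxidant enzymes that are not classical NRF2 targets gave a comparison set of 12 genes. PRDX4, the peroxiredoxin of the endoplasmic reticulum, rose with knockdown, by 1.08 (SE 0.157, limma adjusted p = 0.00412) without and 0.94 (SE 0.142, adjusted p = 0.00383) with TGF-beta. TXNRD2, the mitochondrial counterpart of TXNRD1, fell by 0.42 (adjusted p = 0.0224) and 0.53 (adjusted p = 0.0103) on the log2 scale, the first call being lost without Huh7, HepG2, HLE or SK-HEP1 (adjusted p from 0.0502 to 0.0569). SOD1, GPX1, PRDX3, TXN2 and TXNRD3 were also called lower with knockdown in the presence of TGF-beta, so that 6 of 12 were lower and 1 higher, beside 21.8% and 8.47% of all genes. After scaling the libraries to a common median ratio, 1 was lower and 1 higher, and without Huh7 and HepG2 the counts were also 1 and 1. On TGF-beta in siCTL cells, 0 of 12 were called and 1 passed unadjusted, beside 12 and 1908 of all 12163 genes. In siSFPQ cells SOD2 alone was called (-0.70, limma adjusted p = 0.0376), beside 5.34% of all genes. That call held only without Hep3b among the 6 single-line omissions.

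Because SLC7A11 also answers to ATF4, the amino acid stress factor, and ABCC2 to hepatocyte nuclear receptors, those lists were read beside them. Of 12 ATF4 targets, DDIT4 rose with knockdown by 0.94 (limma adjusted p = 0.00979) and 1.32 (adjusted p = 0.00948), PHGDH, of serine synthesis, fell by 1.02 (adjusted p = 0.00860) and 1.11 (adjusted p = 0.00650), and no other was called. On TGF-beta none of the 12 was called. Unadjusted, 1 passed in siCTL and 6 in siSFPQ cells, beside 1908 of 12163 and 3370 of 11882 genes. With knockdown, 21.7% of all genes were called without TGF-beta and 30.3% with it. Of 6 nuclear receptors, NR1I3 (CAR) fell with knockdown by 0.92 (adjusted p = 0.00322) and 0.93 (adjusted p = 0.00263). RXRA, its dimer partner, fell with TGF-beta present (-0.40, adjusted p = 0.0126), and none was called on TGF-beta. Of 7 further hepatocyte ABC transporters only 2 or 3 were expressed enough to test, and ABCB1 fell with knockdown in the presence of TGF-beta (-0.51, limma adjusted p = 0.00936).

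After subtracting each line's mean, 7 of the 9 genes tended to vary together over the 24 libraries. GCLC mostly followed them less closely, and HMOX1 mostly ran opposite. These correlations are descriptions over 24 libraries that share lines and treatments. TXNRD1, OSGIN1 and ABCC2 were picked because each was lower on TGF-beta in the siSFPQ libraries, which are among the 24. Their r with each other is therefore partly built in by that choice. Pearson's r was 0.884 for OSGIN1 and ABCC2, 0.817 for TXNRD1 and ABCC2, and 0.808 for SRXN1 and GCLM. The last 2 were the genes called lower after knockdown among the 6 tested there. For GCLC, r was -0.016 with NQO1, 0.19 with OSGIN1, 0.196 with GCLM and at most 0.462, with SRXN1. Pairs within the 7 overlap this range, with 0.293 for TXNRD1 and GCLM and 0.393 for NQO1 and SLC7A11. Over the 28 pairs without HMOX1, r ran from -0.016 to 0.884 with a median of 0.478. Over the 8 pairs with HMOX1 it ran from -0.637 to 0.040 with a median of -0.566.

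**Figure D5:**
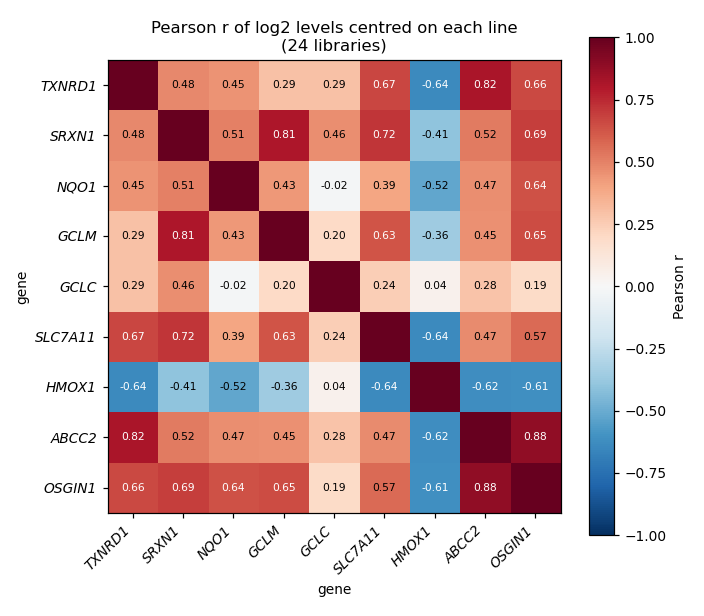
Pearson's r between the 9 genes over 24 libraries, on log2 FPKM + 1 after subtracting each line's mean; colour gives r from -1 to 1. The cells of HMOX1 lie between -0.637 and 0.040 and those of the other pairs between -0.016 and 0.884.

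Among 12489 expressed genes (mean log2 FPKM + 1 not under 1), those with the within-line profile most like a member's were FUCA2 (r = 0.898), CDC42SE2 (0.885) and MYO18A (0.876) for TXNRD1, and C15orf61 (0.925), BOLA3 (0.898) and PCYT2 (0.898) for OSGIN1. For ABCC2 they were TARBP1 (0.919), B2M (0.899) and NFX1 (0.884). PCYT2, for example, went from 73.0 to 36.0 FPKM with TGF-beta in siSFPQ Huh7 cells and from 22.9 to 10.3 in HLE. The mean of the 9 genes was followed most closely by MRPS30 (0.922), NUDT16 (0.903) and ENOPH1 (0.882). None of these is one of the 49 further NRF2 targets. The best of 12489 genes over 24 libraries is a selected value, and these r describe likeness only.

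Markers of other cell types moved with some of these comparisons. The summed level of 6 stellate and fibroblast markers ran from 18.5 to 101 FPKM in siSFPQ libraries and from 40.4 to 239 FPKM in siSFPQ libraries with TGF-beta. COL1A1 and PDGFRB, which TGF-beta is also known to induce, were called higher there, calls that were lost without HepG2 or HLE, among others (adjusted p from 0.0750 to 0.0788). The 9 hepatocyte markers summed to 4.79 to 8316 FPKM in siSFPQ and 6.24 to 9933 FPKM in siSFPQ with TGF-beta. Of the 8 or 9 that could be tested, 0 were called in any comparison. Over all genes, 0.0987% were called on TGF-beta in siCTL cells and 5.34% in siSFPQ cells. With knockdown the shares were 21.7% without and 30.3% with TGF-beta. Summed over 5 genes, immune markers ran from 17.4 to 600 FPKM in siSFPQ and from 16.2 to 391 FPKM in siSFPQ with TGF-beta. In the same order, endothelial markers ran from 0.423 to 1.10 and from 0.400 to 0.893 FPKM. With knockdown in the presence of TGF-beta, where GCLM and SRXN1 were called, PDGFRB (1.05, limma adjusted p = 0.00418) and COL1A1 (0.98, adjusted p = 0.00618) were called higher and ACTA2 lower (-0.42, adjusted p = 0.0487, lost without SK-HEP1 at 0.0845). Of 4 bile duct markers, KRT7 was called higher with knockdown in the presence of TGF-beta (0.54, limma adjusted p = 0.00434), and CD68 higher (0.36, adjusted p = 0.0382) and ACTA2 lower (-0.37, adjusted p = 0.0467) without it, the last pair of calls being lost without any of several single lines, Huh1 among them (adjusted p = 0.0640 and 0.0706). The part of these shifts in the values of the 9 genes was not tested. Each library is bulk RNA of 1 cultured line. A change in every cell and a change in the share of cells that express a gene cannot be told apart in it.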

How the data were processed

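Polyadenylated RNA of 24 libraries was sequenced, 1 per line and group. Per the labels' protocols, RNA was taken with Trizol and libraries were made with a VAHTS mRNA kit. TopHat2 2.1.1, Cufflinks 2.2.1 and build hg19 are named in the submitters' processing notes, and which annotation was used is not given in the sources used here. As for units, the table the authors deposited is named as raw counts but holds FPKM: values are not whole, and the smallest step of a value, that of 1 read, scaled with transcript length to the power -0.981 over 436 genes. Depth is therefore only known relatively, and intervals from counts are not given.

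Groups and lines were read from the sample titles and columns were matched by name; 2 further columns are empty and were not used. Values under 1e-06 counted as 0. Because short length inflates FPKM, 1630 rows of short RNAs among the 23284 were dropped. Each comparison of 12 libraries was fitted on log2(FPKM + 1) with limma 3.58.1 (R 4.3.3), with line as a block, eBayes with trend and robust shrinkage, genes with at least 1 FPKM in at least 6 of the 12, and p-values adjusted by Benjamini-Hochberg across every gene that passed. A call is an adjusted p under 0.05, and log2(FPKM + 1) understates changes of low genes. All 9 members passed the filter in each comparison. The block rests on the labelled line: deviations from group means correlated between 0.874 and 0.978 for the 36 pairs of libraries of the same line, and between -0.514 and 0.41 for 180 pairs differing in line and group. The fit was tested on simulated data.

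The 9 genes, the gene lists, the named-gene rule and the alternatives were chosen with earlier results of these data known. Named genes are the 9, SFPQ, 5 NRF2 regulators, called genes of each list or those with the smallest p, and the genes most alike in profile. Some marker genes are not reported here by name. The alternatives were a pseudocount of 0.1, no filter, median ratio scaling, no line block, plain eBayes, short RNA rows kept, each line left out, and Huh7 and HepG2 left out. Omissions for the difference of responses and for list counts were added after seeing the data.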

Additional observations from a re-analysis of the deposited data

Results flagged for a closer look

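In 81 sets of 6 lines, a line lying far from the other 5 was looked for with Dixon's criterion, which chance meets in about 1 of 20 sets, and 5 sets met it. HepG2 stood apart in how far SFPQ knockdown shifted the TGF-beta response of TXNRD1, with -0.963 on the log2 scale. Huh1 stood apart in the level of GCLM in all 4 groups: 161 FPKM with siCTL, 137 with siCTL and TGF-beta, 82.7 with siSFPQ and 81.7 with siSFPQ and TGF-beta. These 4 sets share the line, so they are not independent.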

How the results depend on the processing

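The count of 0 of 9 genes called on TGF-beta in siCTL cells was 0 under each alternative and each omitted line. The count for knockdown without TGF-beta, 1 of 6, ranged from 1 to 2 over the 6 omitted lines and was 2 without Huh7 and HepG2 (GCLM and SRXN1). Without the replicate block, that is without pairing libraries by line, it was 0, and the count for knockdown with TGF-beta went from 2 to 0, because differences between lines then enter the error. The latter was 2 under every other alternative. Over all values of the 9 genes, 3 lost a call, each without the block, 2 gained one, and no called change reversed its sign. Small changes that were not called or not tested could change sign when a single line was left out. For knockdown without TGF-beta, the mean log2 change ran from -0.168 to 0.202 for ABCC2, from -0.248 to 0.095 for HMOX1 and from -0.065 to 0.134 for GCLC. Counts over all genes moved more. On TGF-beta in siSFPQ cells 277 genes were higher and 357 lower; it was 303 and 109 after median ratio scaling, 13 and 2 without the filter, and 173 and 168 with short RNA rows kept. For knockdown without TGF-beta 804 and 1805 became 1171 and 1370 after scaling and 366 and 786 without the filter. With TGF-beta 1018 and 2621 became 1580 and 1715, and 657 and 1765. On TGF-beta in siCTL cells 8 and 4 became 0 and 0 without the filter. Leaving out single lines cut the TGF-beta calls in siSFPQ cells to between 29 higher with 5 lower (without Huh1) and 214 with 207 (without Hep3b), and put those of siCTL cells between 0 with 0 (without Huh1, HepG2 or HLE) and 21 with 4 (without Hep3b). Knockdown calls without TGF-beta were 382 and 1001 without HLE and 413 and 983 without SK-HEP1, and those with TGF-beta 648 and 1732 without SK-HEP1. Without Huh7 and HepG2 together the pairs were 52 and 14, 312 and 675, and, with TGF-beta, 495 and 1189. Without the block all were 0. The causes of these shifts were not tested, beyond the fewer libraries. The median change of all genes lay between -0.093 and -0.025 in the 4 comparisons. Low level limits OSGIN1 and SLC7A11 in SK-HEP1 most, where they were at 0.258 to 2.35 and at 0.442 to 1.04 FPKM. The SK-HEP1 libraries were not shallow as a set, with relative depth from 0.683 to 1.37 times the median library.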
